A study of Mus musculus with 14 samples.

Results

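Tumours treated with the BRAF inhibitor PLX4032 were compared between day 6 and day 3 of treatment, with 2 tumours on each day, which makes 4 of the 14 tumours of the study. All tumours grew from SMM102, a mouse melanoma cell line, injected subcutaneously into female C57BL/6J mice aged 6 to 8 weeks at 2 sites per mouse. PLX4032 (vemurafenib) was given by intraperitoneal injection at 50 mg/kg on 5 days per week, from a tumour volume of 150 to 300 mm3. Control tumours of day 3 (n = 2) and day 6 (n = 2) give the change between the same days without PLX4032, and the sample labels call them untreated while the design text says vehicle. The remaining tumours were treated for 18 days (n = 2) or 27 days (n = 4, right and left tumours labelled with 2 numbers). They enter only the estimate of the spread between tumours, to which all 6 groups contribute. The tumours were whole and frozen, so their RNA comes from melanoma cells and from the cells of the host in and around them.

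BRAF is a kinase that passes signals from RAS to MEK and ERK, and ERK switches on genes for growth, for entry into the cell cycle and for its own feedback inhibitors. Inhibition of BRAF in a melanoma that depends on it lowers those ERK target genes and stops the cells from dividing. Macrophages and lymphocytes of the host are known to enter melanomas under such treatment. The comparison of day 6 with day 3 follows how these features moved while treatment went on, and the controls show what moved between the same days without the inhibitor.

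RNA was measured as signal per gene, a scale near to TPM (transcripts scaled to a fixed sum) that the authors deposited. Changes are differences of log2(signal + 1), day 6 minus day 3, and a gene was called where the adjusted p of limma's test over all 15841 tested genes was under 0.05. Values are given tumour by tumour in the order of the deposited columns. The 2 treated tumours of a day carry different numbers in the labels, which do not say that these are mice, and the same number stands in a label of a day 6 control and of a treated day 3 tumour. The p-values therefore set a change against the spread between tumours of a group, pooled over the 6 groups, which may not be that between mice. Log2 signals correlated at 0.982 between the 2 tumours of day 3, at 0.976 between those of day 6, and at 0.935 to 0.960 across the days. Columns of these 4 tumours summed to between 932813 and 1037055, and the number of reads behind them is unknown.

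The labelled cell type was checked on its markers. Vim, an intermediate filament of mesenchymal cells, had a signal of 4111 and 3725 on day 3 and 4735 and 3532 on day 6. The pigment cell genes Pmel (1.04 and 1.05, then 0.723 and 0.496) and Sox10 (0.288 and 0.394, then 0.0941 and 0.0572) were near 0, so that markers that define pigment cells were nearly absent. Mlana, Dct and Tyr are not analysed here. Cells of the female host transcribe Xist, which had 51.3 and 78.5 on day 3, 27.3 and 36.1 on day 6 and 7.98 to 24.7 in the 4 controls, lower on day 6 than on day 3 without a call (log2 change -0.99, adjusted p = 0.12). The Y-linked Ddx3y, which those cells lack, stood at 10.9 and 11.4 on day 3, 13.7 and 7.87 on day 6 and 17.4 to 25 in the controls, and the Y-linked Kdm5d (7.1 and 5.17, then 7.15 and 3.67) and Uty (4.8 and 3.71, then 4.13 and 2.81) also overlapped between the days. In a whole tumour, fewer cells of a type and less RNA per cell cannot be told apart, and the part of cell make-up in the changes that follow was not tested.

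Between day 3 and day 6 under PLX4032, nearly all listed genes of the cell cycle and of ribosome building and most of sterol synthesis rose. Most listed lysosome genes fell, as did a smaller part of those of alternatively activated macrophages, of complement and of connective tissue. Of the 15841 genes, 2892 (18.3%) were called, 1730 higher (10.9%) and 1162 lower (7.34%) on day 6. The median size of change was 0.76 among called genes, and the median change over all tested genes was -0.05. Higher calls made up 59.8% of calls, 69.9% after the columns were rescaled to a common sum, and 52.8% with a pseudocount of 5. The count of 2892 dropped to 1456 without day 6 tumour 1, to 1569 without day 6 tumour 2 and to 1074 without day 3 tumour 2, where 207 lower calls remained and 80.7% of calls were higher. Without the day 27 tumours it was 2249, with 722 lower calls. With all 4 tumours and again without each of them in turn, 850 genes were called, 708 higher and 142 lower.

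In the controls, 0 genes (0%) were called between day 6 and day 3 by limma, and 886 had an unadjusted p under 0.05, against 5344 in the treated tumours. With control day 6 tumour 1 or 2 left out, 7 or 31 genes were called between the controls. The difference between the treated and the control change was called for 1345 genes (8.49%), 960 of them more positive (6.06%) and 385 more negative (2.43%) in treated tumours. Of these, 1275 were also called between the treated days, 940 higher and 335 lower. The count of 1345 dropped to 574 without day 6 tumour 2, to 798 and 681 without day 3 tumours 1 and 2, to 618 without control day 6 tumour 1 and to 601 without control day 3 tumour 2. Without the day 27 tumours it was 998, of which 181 were more negative.

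Most genes that changed had been outside the control range on day 3. Of the 1730 genes that rose, 1661 had both day 3 tumours under the lowest of the 4 controls, and 708 (40.9%) had both day 6 tumours inside the control range. Day 6 tumours were still under all controls for 191 of the risen genes and above all controls for 183. Of the 1162 genes that fell, 1062 had both day 3 tumours over the highest control, 405 (34.9%) had both day 6 tumours inside the control range, and 222 were still above it. Over all tested genes, both day 6 tumours were inside the control range for 33.5% and both day 3 tumours for 16.4%. Both day 3 tumours were under the lowest control for 27.8% of tested genes and over the highest for 31.2%.

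**Figure D1:**
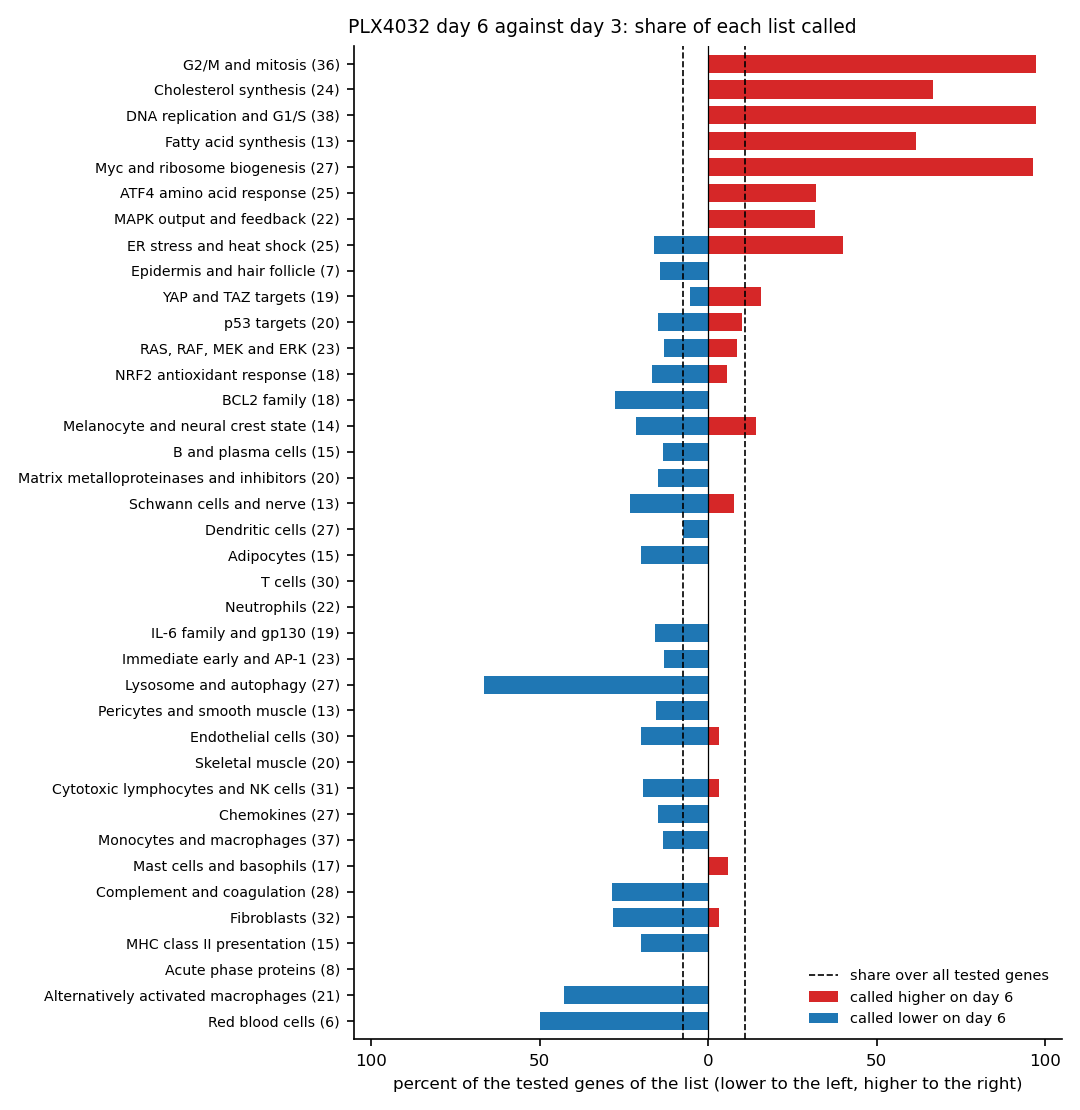
Share of the tested genes of each of 38 gene lists that was called lower (to the left) or higher (to the right) on day 6 than on day 3 of PLX4032; the dashed lines are the shares over all tested genes, 7.34% lower and 10.9% higher. The G2/M, G1/S and ribosome biogenesis lists reach furthest to the right, and the lysosome, red blood cell and alternatively activated macrophage lists furthest to the left.

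Genes that ERK switches on rose in part. Of 22 tested genes of ERK output and feedback, 7 rose and 0 fell, with a median change of 0.37, against a median of -0.33 for the same genes in the controls. On day 3, 14 of the 22 were under all controls in both tumours, and on day 6 11 still were. With day 6 tumour 2 or day 3 tumour 1 left out, 4 genes rose instead of 7. The difference between treated and control change was called for 7 genes, and for 3 without control day 6 tumour 1.

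Hmga1, an architectural chromatin protein (chromosome 17, 27556497 to 27563674, GRCm38), had the largest rise of the list. Its signal was 353 and 329.7 on day 3 and 1289 and 1341 on day 6, a log2 change of 1.94 ± 0.25 (SE, adjusted p = 0.00054), while the controls ranged from 2006 to 3060. Both day 6 tumours lay above both day 3 tumours and below every control. Its relative Hmga2 moved from 59.8 and 52.9 to 165 and 199 (log2 change 1.67 ± 0.21 SE, adjusted p = 0.00045), with controls at 257 to 491. Ccnd1, cyclin D1, which drives the G1 phase, moved from 129.9 and 129 to 307 and 386 (log2 change 1.41 ± 0.21 SE, adjusted p = 0.0014). Of its day 6 tumours, 1 lay inside the control range of 331 to 614 and the other just under it. Etv4, an ETS transcription factor, moved from 12.6 and 22.2 to 42.7 and 45.1 (log2 change 1.34 ± 0.27 SE, adjusted p = 0.0078). The AP-1 component Fosl1 moved from 20.8 and 37.5 to 76.2 and 81.9 (log2 change 1.46 ± 0.32 SE, adjusted p = 0.011). On day 6 Etv4 and Fosl1 were still under all controls, which had 60.7 to 137 and 95.9 to 169.

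Feedback inhibitors of the pathway were not called. Dusp6, a phosphatase that acts on ERK, had 93.2 and 103 on day 3 and 126 and 154 on day 6, a log2 change of 0.51 ± 0.19 (SE, adjusted p = 0.084). Its control signals were lower on day 6 (112 and 119.5) than on day 3 (172 and 158), and the difference of changes, 1.01 ± 0.26 (SE, adjusted p = 0.04), was called, but not without control day 6 tumour 1 (adjusted p = 0.12). Spry4, a Sprouty inhibitor, had 19.7 and 24.3 on day 3 and 35.9 and 29.96 on day 6 (0.57, adjusted p = 0.084), and Spry2 had 44.5 and 39 and then 46.5 and 34.6 (-0.05, adjusted p = 0.81). Myc, a transcription factor of growth that is also on the ribosome list below, moved from 29.3 and 38.2 to 54.9 and 57.6 (log2 change 0.73 ± 0.18 SE, adjusted p = 0.019). Egr1, an early ERK target (12 and 35.1, then 16.6 and 23.3, adjusted p = 0.96), and the phosphatase Dusp4 (3.79 and 6.66, then 2.55 and 3.79, adjusted p = 0.44) overlapped between the days.

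In the core of the pathway, 2 of 23 genes of RAS, RAF, MEK and ERK signalling rose and 3 fell, beside 10.9% and 7.34% over all tested genes. Rras2, a RAS-related GTPase, moved from 21.8 and 21.9 to 44.5 and 49.99 (log2 change 1.08 ± 0.15 SE, adjusted p = 0.0008), and on day 6 both tumours exceeded its control range of 29.6 to 43.8. Rasa1, a GTPase-activating protein that switches RAS off, moved from 23.7 and 24.6 to 31 and 33.3 (log2 change 0.4 ± 0.09 SE, adjusted p = 0.016). The adaptor Grb2, which links receptors to RAS, moved from 124 and 138 to 84 and 92 (log2 change -0.57 ± 0.14 SE, adjusted p = 0.017). Without day 6 tumour 1 or day 3 tumour 2, 0 genes of this list fell, and without day 6 tumour 2 or day 3 tumour 2, 1 rose.

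Genes of mitosis rose together. Of 36 tested G2/M genes, 35 rose and 0 fell, with a median change of 1.78 against -0.20 in the controls. On day 3, 35 of the 36 were under every control in both tumours, and on day 6 27 had both tumours inside the control range. The difference between treated and control change was called for 35 genes, and 34 genes were called again without each of the 4 treated tumours in turn. The mean of log2(signal + 1) over the list was 4.02 and 4.07 in the day 3 tumours, 5.68 and 5.76 in the day 6 tumours, and 5.54 to 5.95 in the controls.

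Genes of mitosis are known for a pair of promoter elements, the CHR element (TTTGAA), which the DREAM and MuvB complexes read, and the CCAAT box, bound by NF-Y. Promoters of 300 bases, from 250 before to 50 after the start of transcription, were taken from RefSeq on GRCm38.p6, 1 for each of 27025 gene symbols, and searched on both strands. Of the 36 list genes, 30 had a promoter there. The CHR element was in 22 of the 30 (73.3%) and in 18.1% of all promoters, the CCAAT box in 23 (76.7%) and in 37.9%, and both in 19 (63.3%) and in 7.12%. The promoters of the 5 list genes with the smallest p that had one are shown 5′ to 3′ on the strand of the gene, because 4 of them carry the CHR element and 4 the CCAAT box. Capitals mark TTTGAA and CCAAT or their reverse complements.
Aurka (chr2:172370521-172370820, minus strand): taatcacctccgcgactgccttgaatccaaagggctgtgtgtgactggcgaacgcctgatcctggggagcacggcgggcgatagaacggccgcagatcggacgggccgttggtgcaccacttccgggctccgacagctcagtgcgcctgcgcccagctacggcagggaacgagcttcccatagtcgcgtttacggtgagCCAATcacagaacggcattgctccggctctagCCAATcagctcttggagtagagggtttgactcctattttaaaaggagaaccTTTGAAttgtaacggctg
Kif2c (chr4:117178723-117179022, minus strand): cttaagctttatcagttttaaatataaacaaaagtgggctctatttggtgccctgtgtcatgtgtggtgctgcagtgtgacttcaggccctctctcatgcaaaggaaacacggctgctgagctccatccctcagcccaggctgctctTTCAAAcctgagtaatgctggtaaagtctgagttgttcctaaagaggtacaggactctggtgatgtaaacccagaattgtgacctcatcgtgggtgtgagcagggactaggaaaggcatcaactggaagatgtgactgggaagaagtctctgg
Cdc20 (chr4:118437294-118437593, minus strand): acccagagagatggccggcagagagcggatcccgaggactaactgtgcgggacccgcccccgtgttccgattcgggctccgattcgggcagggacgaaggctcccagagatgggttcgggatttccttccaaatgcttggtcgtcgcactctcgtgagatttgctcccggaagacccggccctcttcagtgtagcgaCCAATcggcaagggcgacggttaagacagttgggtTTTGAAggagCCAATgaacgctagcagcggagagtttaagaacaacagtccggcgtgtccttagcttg
Kif23 (chr9:61946750-61947049, minus strand): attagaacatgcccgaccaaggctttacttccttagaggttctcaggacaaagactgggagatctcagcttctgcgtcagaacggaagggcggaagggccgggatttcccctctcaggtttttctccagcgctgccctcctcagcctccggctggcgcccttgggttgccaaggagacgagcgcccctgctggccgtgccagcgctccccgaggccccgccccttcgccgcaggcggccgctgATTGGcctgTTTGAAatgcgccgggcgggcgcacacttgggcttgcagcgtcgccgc
Ccnb1 (chr13:100786437-100786736, minus strand): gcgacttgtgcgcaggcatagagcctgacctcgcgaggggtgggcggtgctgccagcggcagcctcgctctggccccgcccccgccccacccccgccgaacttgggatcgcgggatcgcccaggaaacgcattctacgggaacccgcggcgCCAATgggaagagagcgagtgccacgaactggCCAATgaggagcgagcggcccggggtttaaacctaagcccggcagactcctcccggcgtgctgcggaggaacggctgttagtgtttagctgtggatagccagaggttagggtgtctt
Aurka and Cdc20 each hold 1 CHR element and 2 CCAAT boxes, Kif23 holds 1 of each, Kif2c 1 CHR element and 0 CCAAT boxes, and Ccnb1 0 CHR elements and 2 CCAAT boxes. The RefSeq start used for Kif2c lies inside the gene as GENCODE M21 draws it (chromosome 4, 117159639 to 117182639), while those of the other 4 lie at its end. A match of letters describes the sequence and is not a measured binding site.

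Aurka, the kinase Aurora A that builds the spindle poles, had a signal of 12.9 and 12 on day 3 and 51.1 and 54.9 on day 6, a log2 change of 2.01 ± 0.13 (SE, adjusted p = 2.8e-05). Its day 6 tumours lay inside the control range of 44.4 to 64.9. Cdc20, which activates the anaphase-promoting complex, moved from 22.9 and 21.8 to 111 and 108 (log2 change 2.25 ± 0.15 SE, adjusted p = 2.8e-05). Ccnb1, the mitotic cyclin B1, moved from 20.7 and 18.3 to 88.9 and 85.2 (log2 change 2.11 ± 0.15 SE, adjusted p = 3.3e-05). For these 3 genes the 2 tumours of a day were close to each other and far from those of the other day. Plk1, a kinase that drives entry into mitosis, moved from 12.7 and 11.6 to 60.6 and 65.3 (log2 change 2.28 ± 0.17 SE, adjusted p = 3.5e-05). The kinesins Kif2c (8.52 and 9.29, then 33.6 and 34.7) and Kif23 (26.2 and 26.5, then 84.9 and 75.7) rose by 1.83 and 1.57. Mki67, the marker of dividing cells, moved from 14.3 and 15.7 to 45.7 and 42.1 (log2 change 1.49 ± 0.14 SE, adjusted p = 0.0001), with controls at 43.8 to 60.4. Pttg1, securin, was the member that was not called (38.9 and 53.4, then 35.9 and 63.4, adjusted p = 0.88).

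Genes of DNA replication rose as well. Of 38 tested G1/S genes, 37 rose and 0 fell, with a median change of 1.40 against -0.13 in the controls, and the difference of changes was called for 32. On day 3, 35 of the 38 were under every control. On day 6, 10 had both tumours inside the control range and 8 had both above it. Pole, the catalytic subunit of DNA polymerase epsilon, moved from 7.34 and 6.79 to 27.1 and 29.6 (log2 change 1.86 ± 0.12 SE, adjusted p = 2.8e-05), and its day 6 tumours were above the control range of 24.4 to 25.5. Uhrf1, which helps copy DNA methylation to new strands, moved from 26.4 and 23.1 to 90.02 and 96.1 (log2 change 1.87 ± 0.15 SE, adjusted p = 4.1e-05). Cdc45 of the replicative helicase moved from 14 and 14.2 to 46 and 49.4 (log2 change 1.69 ± 0.13 SE, adjusted p = 3.3e-05). Tk1, thymidine kinase, moved from 58.9 and 55.9 to 169.6 and 155 (log2 change 1.48 ± 0.11 SE, adjusted p = 3.2e-05). The helicase subunit genes Mcm2 to Mcm7 rose by 1.22 (Mcm7) to 1.71 (Mcm5).

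The transcription factor E2f1, whose protein drives this gene group, moved from 24.9 and 25.5 to 34.7 and 35.3 (log2 change 0.46 ± 0.14 SE, adjusted p = 0.048), and its relative E2f2 was the member not called (7.14 and 6.62, then 7.05 and 7.45, adjusted p = 0.79). The E2F motif TTTGGCG was in 10 of the 31 G1/S promoters present (32.3%) and in 1.59% of all promoters.

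**Figure D2:**
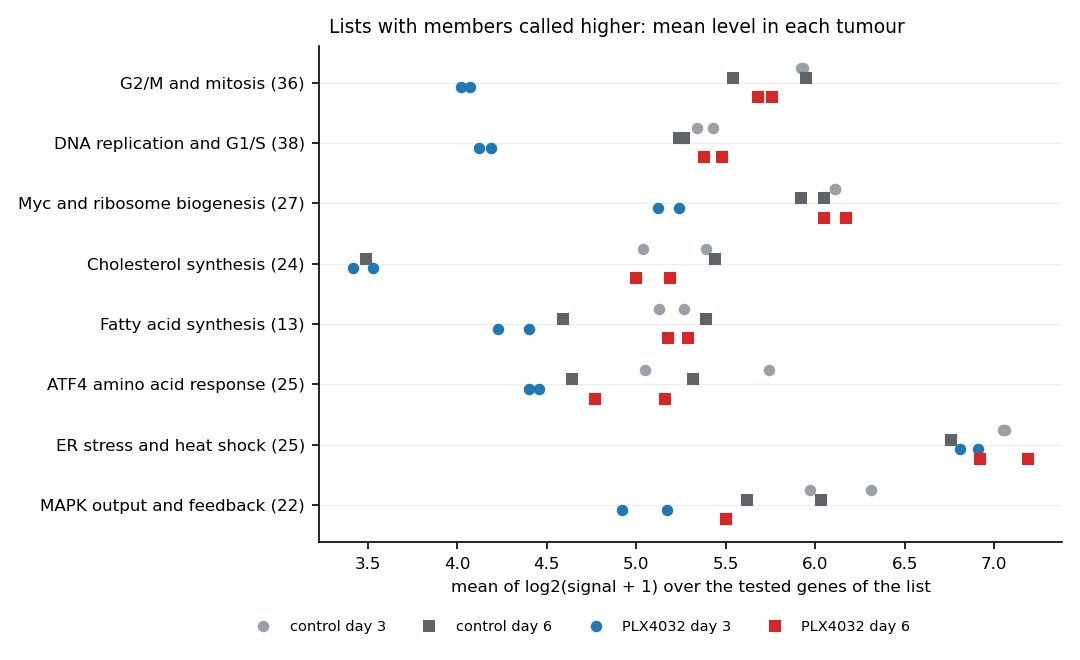
Mean of log2(signal + 1) over the tested genes of 8 gene lists in each of 8 tumours (points, 2 per group), for controls and PLX4032 tumours of day 3 and day 6. For the G2/M list the day 3 treated tumours sit at 4.02 and 4.07 and all others at 5.54 or more, while for cholesterol synthesis control day 6 tumour 1 sits at 3.49, beside the treated day 3 tumours.

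Genes that build ribosomes rose with the cell cycle. Of 27 tested genes of the Myc and ribosome biogenesis list, 26 rose and 0 fell, with a median change of 0.91 against -0.12 in the controls, and 15 rose in a fit of the 4 tumours alone. Dkc1, the pseudouridine synthase dyskerin, moved from 23.9 and 17.9 to 67.9 and 65.6 (log2 change 1.65 ± 0.15 SE, adjusted p = 6.8e-05). Nop56, a core protein of small nucleolar ribonucleoproteins, moved from 75.9 and 94.4 to 229.8 and 267 (log2 change 1.54 ± 0.16 SE, adjusted p = 0.00014), and its partner Nop58 moved from 82.7 and 102 to 238 and 276 (log2 change 1.47 ± 0.15 SE, adjusted p = 0.00016). Cad, which starts pyrimidine synthesis, moved from 18.2 and 16.5 to 40.7 and 39.4 (log2 change 1.16 ± 0.12 SE, adjusted p = 0.00019). For Dkc1 and Cad both day 3 tumours were below the controls, which had 55.1 to 74.5 and 41.9 to 48.4. The difference of changes was called for 24 genes, or 17 without control day 6 tumour 1. Nolc1 was the member not called, at 0.662 and 1.32 on day 3. Of 35 genes for the proteins of the cytosolic ribosome itself, 2 rose and 0 fell, with a median change of 0.14.

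Some genes of cholesterol synthesis were among the largest single rises, though the median of the list was under the 1.78 of the G2/M list. Of 24 tested genes of the sterol pathway, 16 rose and 0 fell, with a median change of 1.60 against -0.70 in the controls. Fdps, farnesyl diphosphate synthase (chromosome 3, 89093588 to 89101959), had a signal of 33.4 and 23.1 on day 3 and 272 and 217 on day 6, a log2 change of 3.08 ± 0.75 (SE, adjusted p = 0.019). Sqle, squalene epoxidase, moved from 8.45 and 6.3 to 57.6 and 45.9 (log2 change 2.66 ± 0.61 SE, adjusted p = 0.014). Hmgcs1, an early synthase of the pathway, moved from 15.7 and 16.9 to 66.6 and 59.5 (log2 change 1.89 ± 0.57 SE, adjusted p = 0.043). In each of these genes both day 6 tumours were above both day 3 tumours. Srebf2, the transcription factor of sterol genes, moved from 31.8 and 25.8 to 69.4 and 56.8 (log2 change 1.1 ± 0.35 SE, adjusted p = 0.049).

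The controls were not uniform for this pathway. The mean of log2(signal + 1) over the 24 genes was 3.53 and 3.42 in the treated day 3 tumours, 5.19 and 5.00 in the treated day 6 tumours, 5.04 and 5.39 in the controls of day 3, and 3.49 and 5.44 in those of day 6. Control day 6 tumour 1 stood with the treated day 3 tumours, and its Fdps signal was 28.8, against 282.2 in control day 6 tumour 2. Both treated day 6 tumours were inside this wide control range for 21 of the 24 genes. The difference of changes was called for 11 genes with a median of 2.28, and for 9 genes with a median of 1.24 without control day 6 tumour 1. Between the treated days, 19 genes rose without that tumour and 16 in a fit of the 4 treated tumours alone. The number that rose was 2 or 3 without day 6 tumour 1 or 2, and 6 or 0 without day 3 tumour 1 or 2, fits in which the lone tumour left in its group takes its spread from the other groups. The sterol element TCACCCCAC was in 1 of 16 list promoters present (6.25%) and in 0.522% of all promoters.

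Fatty acid synthesis moved in the same direction. Of 13 tested genes, 8 rose and 0 fell, with a median change of 1.11. The desaturase Fads2 moved from 12.9 and 9.75 to 71.3 and 55.2 (log2 change 2.38 ± 0.54 SE, adjusted p = 0.014). The elongase Elovl6 moved from 5.54 and 3.34 to 18.2 and 16.3 (log2 change 1.77 ± 0.39 SE, adjusted p = 0.011). Fasn, fatty acid synthase, moved from 50.6 and 43.8 to 132 and 136 (log2 change 1.49 ± 0.31 SE, adjusted p = 0.0087). Me1, malic enzyme, which supplies NADPH, moved from 18.3 and 16.5 to 38.9 and 38.5 (log2 change 1.11 ± 0.2 SE, adjusted p = 0.0047) and ended above its control range of 20.9 to 26.1. Srebf1, the transcription factor of fatty acid genes, moved from 50.8 and 54.7 to 73.5 and 78 (log2 change 0.51 ± 0.12 SE, adjusted p = 0.014). The number that rose was 3 or 4 without day 6 tumour 1 or 2 and 1 without day 3 tumour 2. The difference of changes was called for 4 genes, or 1 without control day 6 tumour 1.

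Amino acid genes rose in part. Of 25 tested genes of the ATF4 response, 8 rose and 0 fell, with a median change of 0.54, and the 8 serve the synthesis, uptake and tRNA loading of amino acids. Phgdh, which starts serine synthesis, moved from 66.2 and 49.2 to 188 and 205 (log2 change 1.76 ± 0.17 SE, adjusted p = 9.2e-05). Shmt2, which passes a carbon unit from serine to folate in mitochondria, moved from 40.7 and 42.2 to 114 and 125 (log2 change 1.51 ± 0.18 SE, adjusted p = 0.00037). The amino acid transporter Slc7a5 moved from 14.3 and 15.6 to 35.4 and 44.4 (log2 change 1.35 ± 0.17 SE, adjusted p = 0.00058), and Gars, which loads glycine onto its tRNA, moved from 68 and 68.7 to 115 and 125 (log2 change 0.8 ± 0.13 SE, adjusted p = 0.0023). Stress members of the same list did not pass the test, such as the transcription factor Ddit3 (52.9 and 55.8, then 30.7 and 46.6, adjusted p = 0.25) and the pseudokinase Trib3 (2.37 and 3.37, then 2.98 and 8.97, adjusted p = 0.41). The number that rose was 5 without day 6 tumour 2 and 5 without day 3 tumour 2. The difference of changes was called for 8 genes, or 6 without control day 6 tumour 1.

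Chaperones went both ways. Of 25 genes of endoplasmic reticulum stress and heat shock, 10 rose and 4 fell. Hspd1, the mitochondrial chaperonin, moved from 115 and 116 to 283 and 323 (log2 change 1.38 ± 0.16 SE, adjusted p = 0.00028), and the cytosolic chaperone Hsp90aa1 moved from 163 and 164 to 347 and 407 (log2 change 1.2 ± 0.11 SE, adjusted p = 9.1e-05). Hyou1, a chaperone of the endoplasmic reticulum, moved from 57.8 and 52.9 to 83.2 and 99.7 (log2 change 0.71 ± 0.11 SE, adjusted p = 0.0021). Among those that fell, Herpud1, of protein disposal at the endoplasmic reticulum, moved from 61.2 and 71.8 to 41.4 and 38.9 (log2 change -0.71 ± 0.13 SE, adjusted p = 0.0055), and the transcription factor Xbp1 moved from 132 and 151 to 88.3 and 109 (log2 change -0.52 ± 0.16 SE, adjusted p = 0.042). The other 2 were the inducible heat shock genes Hspa1a and Hspa1b, near-identical copies whose split is uncertain, and Hspa1a moved from 2.81 and 10.6 to 0.939 and 1.2 (log2 change -1.69 ± 0.44 SE, adjusted p = 0.024). Without day 6 tumour 1, 1 fell, without day 6 tumour 2, 3 rose and 2 fell, and without day 3 tumour 2, 3 rose and 0 fell. Treated and control change differed, by a call, for 9 genes, each higher, or 4 without control day 6 tumour 1.

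Lysosome genes fell. Of 27 tested genes of lysosomes and autophagy, 18 fell and 0 rose, with a median change of -0.75 against 0.01 in the controls. On day 3, 22 of the 27 were above every control in both tumours, and on day 6 8 were. Ctsd, the protease cathepsin D, moved from 1183 and 1235 to 403 and 463 (log2 change -1.48 ± 0.15 SE, adjusted p = 0.00012), and Ctsb, cathepsin B, moved from 811 and 925 to 284 and 388 (log2 change -1.38 ± 0.19 SE, adjusted p = 0.00089). The acid lipase Lipa moved from 108 and 109 to 52.3 and 48.8 (log2 change -1.09 ± 0.1 SE, adjusted p = 7.3e-05). Map1lc3b, of the autophagosome membrane, moved from 154 and 148 to 95.9 and 86.5 (log2 change -0.72 ± 0.1 SE, adjusted p = 0.0011). For these 4 genes the 2 tumours of each day lay close together. Tfeb, a transcription factor of lysosome genes, moved from 21.7 and 22.6 to 9.48 and 10.1 (log2 change -1.1 ± 0.33 SE, adjusted p = 0.041). Ctsl, cathepsin L, was higher on day 6 and not called (915 and 1086, then 1651 and 1845, adjusted p = 0.057). The number that fell was 12 without day 6 tumour 1 and 10 without day 3 tumour 2. Against the control change, a difference was called for 14 genes, or 3 without control day 6 tumour 1. Macrophages are rich in lysosomes, and the mean of log2(signal + 1) over 37 macrophage genes was 7.30 and 7.79 on day 3, 6.23 and 6.95 on day 6 and 4.23 to 5.6 in the controls, a part in the falls that was not tested.

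Some genes of alternatively activated macrophages fell. Of 21 tested genes of that list, 9 fell and 0 rose, with a median change of -1.68, and 20 of the 21 were above every control on day 3 and 7 on day 6. Retnla, a secreted protein of these cells (chromosome 16, 48842551 to 48844461), had 63.6 and 50.1 on day 3 and 7.12 and 1.78 on day 6, a log2 change of -3.6 ± 0.39 (SE, adjusted p = 0.0002), with controls at 0 to 0.901. Marco, a scavenger receptor, moved from 23.3 and 146 to 1.62 and 8.69 (log2 change -3.57 ± 0.73 SE, adjusted p = 0.0081). Timd4, a receptor for dying cells, moved from 3.75 and 2.96 to 0.779 and 0.728 (log2 change -1.31 ± 0.17 SE, adjusted p = 0.00066), with both day 6 tumours under a signal of 1. Cd209f, a lectin with close relatives beside it in the genome, so that its level is uncertain, moved from 39.8 and 116 to 9.36 and 4.98 (log2 change -3.13 ± 0.63 SE, adjusted p = 0.0077). Mrc1, the mannose receptor, was lower in both day 6 tumours and not called (54.2 and 64.1, then 24.3 and 17.1, adjusted p = 0.14). Falls numbered 6 or 4 without day 6 tumour 1 or 2, 3 without day 3 tumour 2 and 17 without control day 6 tumour 1. Treated and control change differed, by a call, for 3 genes, or 1 without control day 6 tumour 1, where the control median was -0.91.

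Of 37 genes of monocytes and macrophages at large, 5 fell and 0 rose, beside 7.34% and 10.9% over all tested genes. Their median change was -1.0, and 25 had both day 6 tumours still above every control. Lyz2, lysozyme, moved from 3881 and 7768 to 796 and 1785 (log2 change -2.2 ± 0.62 SE, adjusted p = 0.033). Cd68, a lysosomal protein of macrophages, moved from 367 and 405 to 121 and 157 (log2 change -1.48 ± 0.41 SE, adjusted p = 0.031), and Folr2, a folate receptor of resident macrophages, moved from 109 and 145 to 27.8 and 18.7 (log2 change -2.41 ± 0.59 SE, adjusted p = 0.019). Defining markers were lower in both day 6 tumours than in both day 3 tumours without a call, among them the growth factor receptor Csf1r (264 and 399, then 104 and 165, adjusted p = 0.24), Adgre1, the antigen F4/80 (170.3 and 385, then 74.9 and 84.5, adjusted p = 0.16), and the complement gene C1qa (1474 and 1677, then 698 and 882, adjusted p = 0.25). Ly6c2, of inflammatory monocytes, overlapped between the days (269.5 and 685, then 113 and 854). In this list the falls numbered 1 without either day 6 tumour, 0 without day 3 tumour 2 and 8 without control day 6 tumour 1. Against the control change, a difference was called for 0 of the 37 genes, with a median of -0.88, or -0.27 without control day 6 tumour 1, where the control median was -0.85. Sepp1, selenoprotein P, which carries selenium in plasma, was among the 12 largest falls and moved from 1293 and 1162 to 199 and 158 (log2 change -2.78 ± 0.69 SE, adjusted p = 0.02).

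Complement genes fell in part. Of 28 tested genes of complement and coagulation, 8 fell and 0 rose, with a median change of -1.20. C6 of the membrane attack complex moved from 8.62 and 7.03 to 1.05 and 0.885 (log2 change -2.16 ± 0.41 SE, adjusted p = 0.0057). The clotting factor F7 moved from 5.74 and 10.5 to 1.21 and 1.5 (log2 change -1.9 ± 0.26 SE, adjusted p = 0.00079), and F13a1, a subunit of the factor that crosslinks fibrin and a macrophage product, moved from 39.3 and 52.4 to 10.8 and 7.52 (log2 change -2.21 ± 0.51 SE, adjusted p = 0.015). C3, the central component, was lower in both day 6 tumours and missed the threshold (363 and 628, then 79.8 and 154, adjusted p = 0.061). C3 was also lower in the controls of day 6 (24.1 and 3.02) than in those of day 3 (39.7 and 23.9), and its difference of changes was -0.43 ± 0.99 (SE, adjusted p = 0.83). Complement falls numbered 4 or 5 without day 6 tumour 1 or 2, 3 without day 3 tumour 2 and 12 without control day 6 tumour 1. Treated and control change differed, by a call, for 3 genes, or 2 without control day 6 tumour 1.

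**Figure D3:**
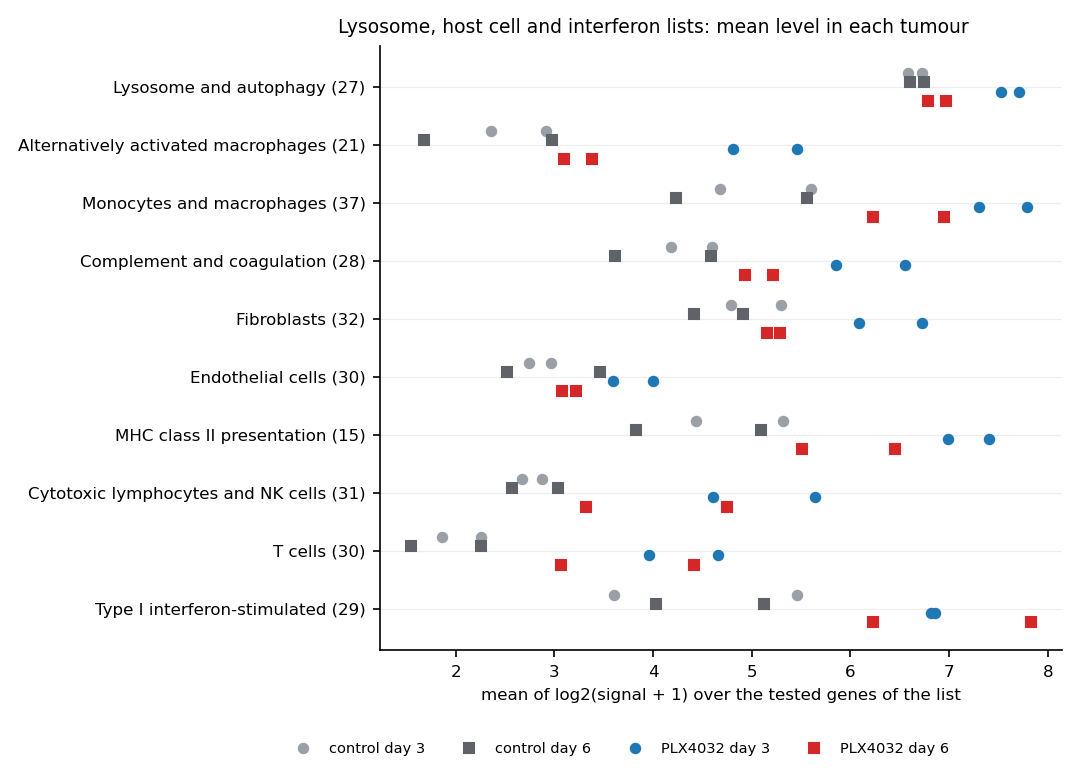
Mean of log2(signal + 1) over the tested genes of 10 gene lists in each of 8 tumours (points, 2 per group), for controls and PLX4032 tumours of day 3 and day 6. In the macrophage, lysosome, complement and fibroblast lists both day 6 treated tumours lie below both day 3 treated tumours, while in the T cell and interferon lists the day 6 tumours stand apart from each other, as at 6.23 and 7.83 for the type I interferon list.

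Connective tissue genes fell in part. Of 32 tested fibroblast genes, 9 fell and 1 rose, with a median change of -1.21. Clec3b, tetranectin, had the largest fall of the genes named by size and moved from 33 and 84.2 to 4.26 and 2.59 (log2 change -3.63 ± 0.55 SE, adjusted p = 0.0016). Tnxb, the matrix protein tenascin X, moved from 7.9 and 17.1 to 1.38 and 0.691 (log2 change -2.66 ± 0.3 SE, adjusted p = 0.00025). Dcn, the small proteoglycan decorin, moved from 440.4 and 678 to 217 and 232 (log2 change -1.28 ± 0.28 SE, adjusted p = 0.011), and the matrix protein Dpt moved from 79 and 188 to 37.6 and 29.2 (log2 change -1.85 ± 0.34 SE, adjusted p = 0.0052). For Clec3b, Tnxb and Dpt both day 3 tumours were above every control. Col1a1, a chain of the main fibrillar collagen, was not called (795 and 988, then 794 and 507, adjusted p = 0.25), and Pdgfrb, a receptor of mesenchymal cells, was not called either (58 and 57.4, then 56.4 and 34.6, adjusted p = 0.18). The count of falls was 4 or 6 without day 6 tumour 1 or 2 and 3 without day 3 tumour 2. Against the control change, a difference was called for 3 genes on the negative and 1 on the positive side, or 1 on each without control day 6 tumour 1. Mmp2, a protease of connective tissue, moved from 329 and 362 to 229.8 and 157 (log2 change -0.86 ± 0.18 SE, adjusted p = 0.0081), and 3 of 20 genes of matrix proteases and their inhibitors fell, or 5, 1, 5 and 0 without day 6 tumours 1 and 2 and day 3 tumours 1 and 2.

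Some endothelial genes fell. Of 30, 6 fell and 1 rose, beside 7.34% and 10.9% over all tested genes, with a median change of -0.89. The angiopoietin receptor Tek moved from 3.6 and 6 to 1.3 and 1.52 (log2 change -1.24 ± 0.31 SE, adjusted p = 0.021), and Plvap, of vessel wall diaphragms, moved from 57.1 and 80.3 to 35.6 and 36.8 (log2 change -0.89 ± 0.26 SE, adjusted p = 0.036). Pecam1, a defining marker, was lower in both day 6 tumours without a call (50.2 and 79.3, then 30.1 and 37.2, adjusted p = 0.12). Esm1, a proteoglycan of sprouting endothelium, went the other way and moved from 6 and 9.92 to 47.3 and 35.7 (log2 change 2.27 ± 0.4 SE, adjusted p = 0.0036). Endothelial falls numbered 0 or 1 without day 6 tumour 1 or 2, 2 or 0 without day 3 tumour 1 or 2 and 15 without control day 6 tumour 1. Against the control change, a difference was called for 0 endothelial genes.

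Some genes of fat, blood and nerve fell as well, where 7.34% of all tested genes were called lower and 10.9% higher. Among 15 adipocyte genes 3 fell, or 5 without control day 6 tumour 1. Lpl, lipoprotein lipase, moved from 50.7 and 51.7 to 7.15 and 5.04 (log2 change -2.9 ± 0.42 SE, adjusted p = 0.0012), and Fabp4, a fatty acid carrier, moved from 53.9 and 51.1 to 12.5 and 14.1 (log2 change -1.9 ± 0.36 SE, adjusted p = 0.0055). Macrophages make both as well, and the defining fat cell gene Adipoq was at 6.4 and 1.33 and then 1.76 and 2.06. Globin genes fell, and Hba-a1 moved from 59.8 and 199.9 to 7.93 and 12.6 (log2 change -3.32 ± 0.89 SE, adjusted p = 0.027), but Hba-a1 and Hba-a2 are near-identical, so the split between them is uncertain. Of 6 red blood cell genes 3 fell, or 1, 0 and 1 without day 6 tumour 1, day 6 tumour 2 and day 3 tumour 2, and 5 without control day 6 tumour 1. Among 13 genes of Schwann cells and nerve, 3 fell and 1 rose. Pmp22, a protein of the nerve sheath, moved from 95.2 and 96 to 66.4 and 45 (log2 change -0.8 ± 0.15 SE, adjusted p = 0.0063), and Gap43, a growth cone protein, moved from 63.4 and 37.1 to 143 and 123 (log2 change 1.43 ± 0.26 SE, adjusted p = 0.0048). Of 20 skeletal muscle genes 0 were called, and their mean of log2(signal + 1) was 5.08 and 5.13 on day 3, 3.86 and 4.5 on day 6 and 1.71 to 3.89 in the controls, a part in the other falls that was not tested.

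The day 6 tumours differed from each other in lymphocytes. Ptprc, the antigen CD45 of leukocytes, was at 121 and 183 on day 3 and at 57.3 and 140.3 on day 6. Day 6 tumour 1 was the lowest of the 4 in the T cell genes Cd3e (14.5 and 22.4, then 8.12 and 27.1, adjusted p = 0.8) and Cd8a (12.2 and 15.7, then 10.1 and 50.6, adjusted p = 0.52) and in the cytotoxic protease Gzmb (84.5 and 209, then 20.01 and 177, adjusted p = 0.36), while day 6 tumour 2 was the highest of the 4 in Cd3e and Cd8a. Of 30 T cell genes 0 were called, with a median change of -0.59, and 27 had both day 6 tumours still above every control. That median changed sign with the tumour left out, from 0.11 without day 6 tumour 1 to -1.29 without day 6 tumour 2, where 4 genes fell.

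A group of granzymes on chromosome 14 fell. Of 31 tested genes of cytotoxic lymphocytes and natural killer cells, 6 fell and 1 rose, beside 7.34% and 10.9% over all tested genes. Gzmg had a signal of 135 and 655 on day 3 and 42.6 and 44.1 on day 6, a log2 change of -2.75 ± 0.5 (SE, adjusted p = 0.0046), with controls at 85.1 to 137. Gzmd moved from 130.3 and 618 to 30.6 and 53.7 (log2 change -2.78 ± 0.58 SE, adjusted p = 0.0092), Gzme moved from 51.2 and 295 to 12.4 and 19 (log2 change -2.93 ± 0.63 SE, adjusted p = 0.01) and Gzmf moved from 152 and 614 to 45.5 and 61.2 (log2 change -2.51 ± 0.52 SE, adjusted p = 0.0089). These 4 genes are close copies, so reads may have been split between them. Day 3 tumour 2 was several times higher than day 3 tumour 1 in each, and both day 6 tumours were below all 4 controls. Their neighbour Gzmc was not called (164 and 722, then 41.1 and 169, adjusted p = 0.08). Klra4, a receptor of natural killer cells, was the gene that rose and moved from 20.5 and 20.5 to 47.9 and 63.2 (log2 change 1.38 ± 0.24 SE, adjusted p = 0.0035), with controls at 51.7 to 87.2. Ncr1, a defining natural killer marker, was at 13.8 and 21.8 and then 3.21 and 13.1. Its controls, at 1.29 to 3.37, were far below those of Klra4. The list had 1 fall without day 6 tumour 1, 16 without day 6 tumour 2 and 10 without day 3 tumour 1. Against the control change, a difference was called for 4 falls and 1 rise, and for 0 genes without control day 6 tumour 1.

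Interferon genes were high on both days. Of 29 tested type I interferon-stimulated genes, 0 were called, the median change was 0.24, and all 29 had both tumours above every control on day 3 and again on day 6. Isg15, a ubiquitin-like protein, had 449 and 444, then 354 and 1291, adjusted p = 0.62, and Mx1, an antiviral GTPase, had 52 and 57.1, then 33.9 and 149, adjusted p = 0.79. Day 6 tumour 2 was the highest and day 6 tumour 1 the lowest of the 4 for both. All 20 genes of class I antigen presentation were likewise above the controls on both days with 0 calls. Cd274, the checkpoint ligand PD-L1, was not called (52 and 69.6, then 15 and 59.9, adjusted p = 0.23). The gamma-activated motif TTCNNNGAA was in 7 of 14 promoters of interferon gamma genes (50%) and in 4 of 20 of type I genes (20%), against 8.47% of all promoters.

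Class II antigen presentation fell in part. Of 15 genes 3 fell, beside 7.34% over all tested genes, with a median change of -1.29. All 15 were above every control on day 3 and 7 on day 6. Ciita, the coactivator that switches on class II genes, moved from 34.9 and 25.8 to 4.68 and 14.4 (log2 change -1.73 ± 0.53 SE, adjusted p = 0.046). H2-DMa, which helps load peptides, moved from 202 and 213 to 44.5 and 87.7 (log2 change -1.71 ± 0.54 SE, adjusted p = 0.049), and the lysosomal thiol reductase Ifi30 moved from 545 and 824 to 160.3 and 286 (log2 change -1.64 ± 0.44 SE, adjusted p = 0.027). Without day 6 tumour 1 or day 3 tumour 2, 0 fell, without day 3 tumour 1, 1 fell, and 0 differences of changes were called.

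Some chemokine and cytokine genes were called lower, where 7.34% of all tested genes were called lower and 10.9% higher. Of 27 chemokine genes 4 fell and 0 rose. Ccl6, a macrophage chemokine, moved from 265 and 401 to 59.8 and 55.3 (log2 change -2.48 ± 0.73 SE, adjusted p = 0.039). Ccl19, which guides cells that carry the receptor CCR7, moved from 14.7 and 18.8 to 2.19 and 5.28 (log2 change -1.98 ± 0.45 SE, adjusted p = 0.014), and Ccl22, made by dendritic cells, moved from 14.8 and 15.7 to 4.46 and 4.89 (log2 change -1.52 ± 0.45 SE, adjusted p = 0.04). Falls in the list numbered 0 without day 6 tumour 1 or day 3 tumour 2. Of 19 genes of IL-6 family cytokines, their receptors and signalling and of the IL-1 family, 3 fell, and 1 without day 3 tumour 2, and the difference from the control change was called for 2, or 1 without control day 6 tumour 1. Il1a, an alarm cytokine, moved from 2.16 and 2.99 to 0.327 and 0.936 (log2 change -1.15 ± 0.2 SE, adjusted p = 0.0036). The oncostatin M receptor Osmr moved from 9.87 and 14 to 4.7 and 7.76 (log2 change -0.85 ± 0.21 SE, adjusted p = 0.019), and the transcription factor Stat3 moved from 125 and 136 to 74.6 and 99.6 (log2 change -0.59 ± 0.19 SE, adjusted p = 0.049), a call that was lost in 15 of 21 alternatives. Il1rl1, the receptor of IL-33, rose and moved from 235 and 214 to 432 and 736 (log2 change 1.33 ± 0.38 SE, adjusted p = 0.034), with controls at 199 to 571. Its call was lost in 6 of 21 alternatives, and its difference from the control change was not called (adjusted p = 0.19). The other 16 of 17 genes of mast cells and basophils were not called.

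Genes of cell death moved. Of 18 tested BCL2 family genes, 5 fell and 0 rose, beside 7.34% and 10.9% over all tested genes. Of the 5, 4 are on the proapoptotic side. Bcl2l11, the killer protein BIM, which ERK is known to keep low, moved from 42.7 and 41.6 to 27.2 and 26.2 (log2 change -0.64 ± 0.18 SE, adjusted p = 0.033). Bmf, of the same kind, moved from 25.1 and 17.9 to 9.6 and 7.18 (log2 change -1.25 ± 0.3 SE, adjusted p = 0.017). In the controls Bmf was higher on day 6 (15.9 and 18) than on day 3 (10.03 and 7.72), and the difference of changes was -2.12 ± 0.43 (SE, adjusted p = 0.014) for Bmf and -1.29 ± 0.26 (SE, adjusted p = 0.013) for Bcl2l11. Mcl1, a survival protein, moved from 184 and 259.9 to 130.0 and 159.9 (log2 change -0.6 ± 0.18 SE, adjusted p = 0.045). Lower calls numbered 1 or 0 without day 6 tumour 1 or 2 and 2 or 1 without day 3 tumour 1 or 2.

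A few genes of the melanoma cell state were called in each direction, where 10.9% of all tested genes were called higher and 7.34% lower. Of 14 genes of the melanocyte and neural crest list, 2 rose and 3 fell, with 0 falls without day 6 tumour 1 or day 3 tumour 2 and 1 rise without day 6 tumour 2 or day 3 tumour 2. Treated and control change differed, by a call, for 2 genes, both higher, or 0 without control day 6 tumour 1. Met, the receptor of hepatocyte growth factor, moved from 11.3 and 8.62 to 28.1 and 25.1 (log2 change 1.34 ± 0.15 SE, adjusted p = 0.00023), and both day 3 tumours were under the control range of 17.3 to 25.5. Axl, a receptor kinase of dedifferentiated melanoma, moved from 319.5 and 290.2 to 365 and 431 (log2 change 0.38 ± 0.11 SE, adjusted p = 0.034). Mitf, the master regulator of pigment cells, moved from 6.55 and 10.4 to 2.56 and 3.12 (log2 change -1.28 ± 0.31 SE, adjusted p = 0.019). Ednrb, an endothelin receptor of melanocytes, moved from 2.46 and 8.58 to 1.27 and 0.835 (log2 change -1.5 ± 0.41 SE, adjusted p = 0.03). Axl and Ednrb each lost the call in 6 alternatives. Mitf is also active in macrophages and mast cells. The mast cell marker Cpa3 was at 154 and 87.7 and then 43.2 and 25.8, and the mean of log2(signal + 1) over 17 mast cell and basophil genes was 5.03 and 4.65 on day 3, 4.06 and 3.73 on day 6 and 3.45 to 4.62 in the controls, a part in the fall of Mitf that was not tested. Egfr, a growth factor receptor, was not called (9.94 and 10.2, then 12.2 and 8, adjusted p = 0.97). Igf1, a growth factor, moved from 30.5 and 45.1 to 5.92 and 6.73 (log2 change -2.38 ± 0.44 SE, adjusted p = 0.0048). Whether its RNA came from melanoma or host cells cannot be told in a whole tumour. Of 19 YAP and TAZ targets, 3 rose and 1 fell, with a median change of 0.03, and in a fit of the 4 tumours alone 1 rose and 0 fell. Wwc1, a target and regulator of the YAP pathway, moved from 0.845 and 0.591 to 3.26 and 2.55 (log2 change 1.18 ± 0.25 SE, adjusted p = 0.0097). Both its day 3 tumours were under a signal of 1, and its log2 change was 0.47 to 1.88 over the alternatives.

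Some genes of stress and early response were called, where 10.9% of all tested genes were called higher and 7.34% lower. Of 23 immediate early and AP-1 genes, 3 fell and 0 rose. Fos was lower in both day 6 tumours without a call (37.7 and 70.7, then 25.6 and 24.9, adjusted p = 0.15). Zfp36, which destabilises cytokine messages, moved from 48.8 and 89.9 to 23.6 and 32.1 (log2 change -1.24 ± 0.33 SE, adjusted p = 0.026), and the transcription factor Klf2 moved from 18.2 and 31.2 to 10.7 and 9.88 (log2 change -1.14 ± 0.27 SE, adjusted p = 0.017). Of these genes the number called lower was 0 without day 6 tumour 1 or day 3 tumour 2, 1 without day 6 tumour 2 and 6 without day 3 tumour 1. The cyclic AMP response element TGACGTCA was in 2 of 19 list promoters (10.5%) and in 1.88% of all promoters, and the AP-1 motif TGACTCA in 0 of 19 and in 5.17%. Of 18 genes of the NRF2 antioxidant response, 1 rose and 3 fell, with a median change of -0.10. Among the falls, Hmox1, heme oxygenase, moved from 133 and 489 to 40.3 and 49 (log2 change -2.5 ± 0.5 SE, adjusted p = 0.0072). Its call was lost in the 4 tumours alone. Of 20 p53 targets 2 rose and 3 fell, with 1 or 2 falls and 1 rise when any of the 4 treated tumours was left out. Gdf15, a stress cytokine, moved from 2.94 and 5.11 to 0.733 and 1.26 (log2 change -1.31 ± 0.21 SE, adjusted p = 0.002), and Fas, a death receptor, moved from 22.4 and 26.7 to 8.44 and 15.3 (log2 change -1.04 ± 0.28 SE, adjusted p = 0.027). Gtse1, which is also a gene of the G2 phase, moved from 6.49 and 6.89 to 24.9 and 26.2 (log2 change 1.79 ± 0.21 SE, adjusted p = 0.0003).

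**Figure D4:**
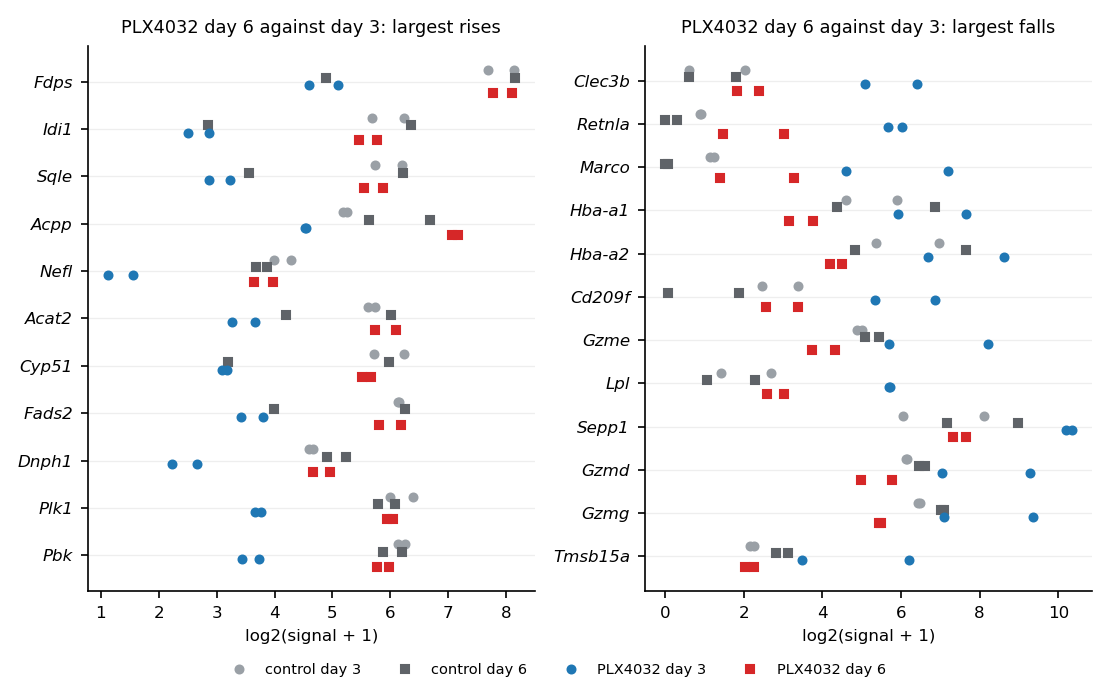
Log2(signal + 1) of 11 genes among the 12 largest rises and of the 12 largest falls between day 3 and day 6 of PLX4032, in each of 8 tumours (points, 2 per group of controls, treated day 3 and treated day 6). In the 6 lipid genes control day 6 tumour 1 lies below both treated day 6 tumours and near the treated day 3 tumours, and the day 6 tumours of Acpp lie above every control.

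By size, the 12 largest rises included the 6 lipid genes Fdps, Idi1, Sqle, Acat2, Cyp51 and Fads2 and the mitotic kinases Plk1 and Pbk. Another 3 belong to none of the lists. Acpp, an acid phosphatase, moved from 22.2 and 22.4 to 133 and 142 (log2 change 2.57 ± 0.27 SE, adjusted p = 0.00018) and was above all 4 controls (35.2 to 102) on day 6. Nefl, a neurofilament protein, moved from 1.92 and 1.18 to 11.5 and 14.6 (log2 change 2.47 ± 0.34 SE, adjusted p = 0.00094), and Dnph1, a nucleotide hydrolase, moved from 5.32 and 3.7 to 29.96 and 24.4 (log2 change 2.36 ± 0.24 SE, adjusted p = 0.00016). Among the falls, Tmsb15a, an actin-binding thymosin, moved from 10.3 and 72.7 to 3.81 and 3.09 (log2 change -2.7 ± 0.64 SE, adjusted p = 0.016), with day 3 tumour 2 far above day 3 tumour 1.

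Of the 173 genes named by rule, 133 were called between the treated days, 57 higher and 76 lower, and 47 of these were called in each of the 20 or 21 alternatives of scaling, filter, model and samples that tested them. The 47 hold all 5 mitotic genes whose promoters are shown, the ERK output genes Hmga1, Hmga2 and Ccnd1, the receptor Met and Rras2. They also hold Phgdh, Shmt2, Slc7a5 and Gars of the amino acid list, and Nop56, Nop58 and Dkc1 of the ribosome list. Of the falls they hold Ctsb, Ctsd, Lipa and Map1lc3b of the lysosome, the macrophage genes Retnla and Timd4, C6 and F7 of complement and coagulation, and Clec3b, Tnxb, Lpl and Fabp4. The named genes of cholesterol synthesis and the granzymes each lost the call in 1 or more alternatives. Without day 3 tumour 2, 68 of the 133 calls were lost, and in the 4 tumours alone 63 were.

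**Figure D5:**
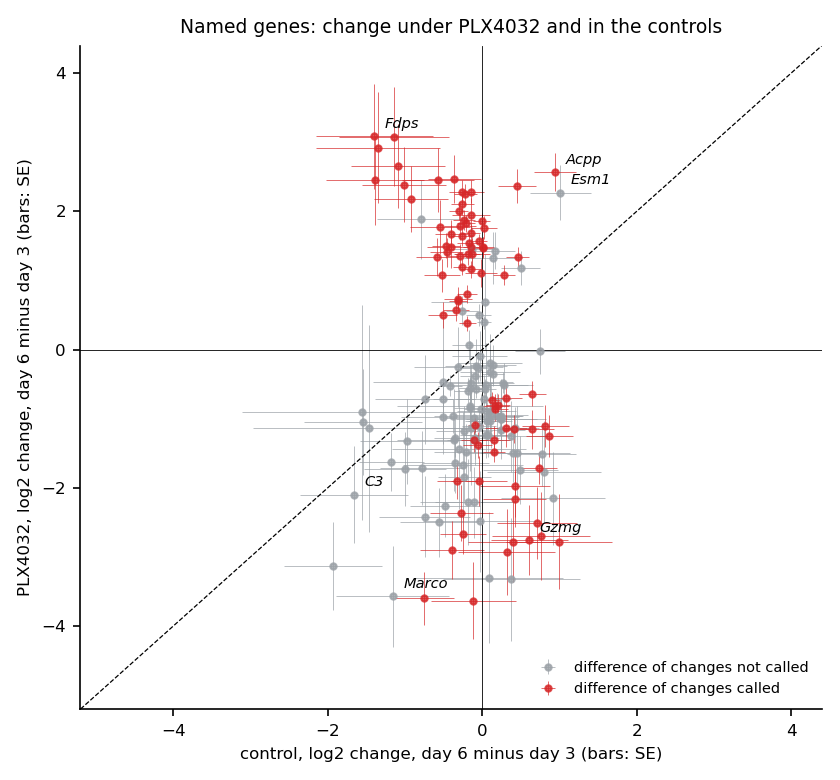
Log2 change between day 3 and day 6 under PLX4032 (vertical) against the change in the controls (horizontal) for 173 named genes, with bars of 1 SE; red marks the 82 genes whose difference of changes was called, and the dashed line is equal change. Fdps sits high on the vertical and left of 0 on the horizontal axis (-1.40), and C3 is negative on both (-2.10 treated, -1.66 controls).

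The treated change was set against the control change for the same 173 genes, and the difference was called for 82 of them. Of the 82, 33 were called in every alternative that tested them. Among the largest rises, control changes were -1.4 for Fdps, -1.35 for Idi1 and -1.39 for Cyp51, where control day 6 tumour 1 was low. They were -0.26 for Plk1, -0.15 for Pbk and -0.36 for Nefl. None of these control changes was called. Retnla changed by -0.75 in the controls, and its difference of changes was -2.85 ± 0.55 (SE, adjusted p = 0.011). Marco changed by -1.16 and Cd209f by -1.93 in the controls, and their differences were not called (adjusted p = 0.17 and 0.44). For Acpp the control change was 0.95 without a call, and the treated change exceeded it by 1.63 ± 0.38 (SE, adjusted p = 0.027). Esm1 changed by 1.01 in the controls, and its difference of 1.26 was not called (adjusted p = 0.19). Without control day 6 tumour 1, 52 of the 82 differences were called.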

How the data were processed

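Per the labels' protocols, RNA of whole frozen tumours was taken up in Trizol and made into libraries with a TruSeq kit of Illumina. A single table of signal per gene for 14 tumours was deposited by the authors. Kallisto and sleuth are named without versions in the submitters' processing notes, as is the build mm10. The deposited signal is called TPM in the table, but its columns sum to between 879385 and 1084401, with 5 of 14 above the fixed sum of TPM values, and how it was rescaled is not stated. No count of reads is given, so depth is unknown and no counting interval can be formed.

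Columns were tied to groups by treatment and day in their names, and the number in a name only labels a tumour. Of 18481 genes listed, 15841 had a signal of 1 or more in at least 2 of the 14 tumours and were tested. Log2(signal + 1) was fitted with limma 3.58.1 in R 4.3.3, with 6 group means, a variance trend and 8 residual degrees of freedom, of which the 4 day 27 tumours, labelled with 2 numbers, give 3. P-values were adjusted by the Benjamini-Hochberg method over all tested genes, and 0.05 was the threshold. An exact permutation test of 2 tumours against 2 cannot go below p = 0.33, so none was run. The script was tested on simulated data. Alternatives were the pseudocount, the filter, the scaling, the samples fitted, limma's variance options and the leaving out of each tumour.

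Coordinates are of GENCODE M21 on GRCm38, matched by symbol for 17811 genes. Genes are named if they have 1 of the 12 largest rises or falls (called, no overlap between the days, a group mean of 5 or more), with up to 4 called genes of smallest p from each described list, a fixed list and defining markers of cell types. List members named beside these, such as Ctsl, Igf1, Isg15 and the E2F genes, were chosen after their values were seen. Values of some named genes are not reported here. The comparison, the 52 gene lists and their members were chosen with earlier results of these data known.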

Additional observations from a re-analysis of the deposited data

Results flagged for a closer look

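The change between day 3 and day 6 differed between treated and control tumours, by a test of the difference itself, for 1345 genes and for 28 genes named among the largest changes or by a fixed list. The values here are the treated log2 change minus the control log2 change. In lipid synthesis the difference was 4.48 for Fdps, 4.27 for Idi1, 3.84 for Cyp51, 3.75 for Sqle, 3.4 for Fads2 and 3.02 for Acat2. In the cell cycle it was 2.54 for Plk1, 2.43 for Pbk, 2.36 for Ccnb1 and 1.47 for Mki67. Among genes that ERK switches on it was 2.09 for Hmga1, 1.92 for Etv4, 1.87 for Ccnd1, 1.05 for Myc, 1.01 for Dusp6 and 0.92 for Etv5. It was 2.83 for Nefl, 1.92 for Dnph1, 1.63 for Acpp and 0.57 for Axl. On the negative side it was -3.77 for Sepp1, -3.52 for Clec3b, -3.46 for Tmsb15a, -2.85 for Retnla and -2.51 for Lpl. For the granzymes Gzmg, Gzme and Gzmd it was -3.36, -3.25 and -3.18. The calls of the cell cycle genes given here were kept in all 21 alternatives. Those of the lipid genes were lost in 7 (Acat2) to 11 (Idi1) of the 21. Without control day 6 tumour 1, 16 of the 28 were called, among them all the lipid and cell cycle genes given here. The other 12, Axl, Etv4, Etv5, Dusp6, Myc, Sepp1, Clec3b, Tmsb15a, Lpl and the 3 granzymes, had adjusted p-values of 0.051 to 0.16 in limma.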

How the results depend on the processing

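None of the 133 named genes called between the treated days changed direction in an alternative. Of the 40 not called, 10 had changes of both signs, such as Cd8a (-0.43 to 1.8) and Ly6c2 (-1.92 to 0.99). The count of genes called between the treated days was 1003 in the 4 tumours alone, 1619 in the 8 tumours of days 3 and 6, and 1074 to 3230 with each tumour left out in turn. The difference between treated and control change was called for 669 genes in the 8 tumours, for 2330 at a threshold of 0.1, and for 574 to 1895 with each tumour left out. Between the controls 0 genes were called except with a tumour left out, where the count was 0 to 31. Of the 133, 47 (34 higher, 13 lower) were called in each of the 20 or 21 alternatives that tested them, and 86 lost the call in at least 1. No paired analysis was possible because the numbers in the column names only tell tumours apart and the labels give the tumours of the compared days different numbers. Depth is unknown, so changes of genes near a signal of 1 have an error that cannot be read from the table, and their size is reduced by the added 1.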
